A study of Mus musculus with 67 samples.

Results

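The genes described here were 8 genes of arginine and polyamine metabolism in preimplantation mouse embryos kept in the dark or exposed to strong light. They were Arg1, Odc1, Amd1, Srm, Sms, Oaz1, Azin1 and Sat1, taken by their symbols from the 26414 genes of the deposited table. All 8 symbols were found. Arg1 was chosen because it rose most in light 2-cell embryos, so its 2-cell values are given as a description, with no test. The other 7 were listed by their function.

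Arginase 1, the product of Arg1, splits arginine into urea and ornithine. Ornithine decarboxylase (Odc1) turns ornithine into putrescine, and spermidine synthase (Srm) and spermine synthase (Sms) then add aminopropyl groups, which come from S-adenosylmethionine through the decarboxylase AMD1 (Amd1). Antizyme (Oaz1) binds ornithine decarboxylase and sends it to the proteasome, antizyme inhibitor (Azin1) captures antizyme, and spermidine/spermine N1-acetyltransferase (Sat1) marks polyamines for export or breakdown. Polyamines bind nucleic acids, serve as the source of hypusine in eIF5A and are needed by early embryos.

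All embryos were of the C57BL/6 strain. Embryos of the light group received 5000 lx for 6 h as 2-cell embryos and went back to a dark incubator, whereas the control group stayed dark. According to the methods, embryos were dissociated and cells were picked by hand for SMART-seq2, while the labels call each library an embryo, so a library was taken as a replicate. Cells of 1 embryo may thus be counted as replicates, in which case p-values between groups are too small. Of 67 libraries, 7 control and 6 light were from 2-cell, 6 and 8 from 4-cell, and 4 and 8 from 8-cell embryos, 13 and 6 were from morulae, and 3 and 6 from blastocysts. No source names the mother, litter or culture drop of a library, so p-values measure only the spread between these libraries, which may be technical. A value is the number of reads on a gene divided by a size factor of its library, without division by gene length. RNA per cell was not measured, and if a library holds more than 1 cell, fewer cells of a type and less RNA per cell cannot be told apart.

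Total reads lay between 836011 and 8551674 per library, of which 54.0% to 89.3% fell on the rRNA gene CT010467.1 and on Gm42418, leaving 318177 to 2867030 reads for all other genes. The ratio of Gm42418 to CT010467.1 differed between the groups before the blastocyst, with 3.00 ± 0.668 (SD, n = 7) in control and 1.65 ± 0.0697 (SD, n = 6) in light 2-cell libraries. Control morulae averaged 3.22 ± 0.608 (SD), light morulae 1.55 ± 0.0653. Among 8-cell libraries control had 2.21 ± 0.146, light 1.63 ± 0.0585. Blastocysts showed no such gap, as both means were 1.43. Light 4-cell libraries averaged 1.54 ± 0.0753, control 2.70 ± 1.37. Control 4-cell libraries 1 and 2, with ratios of 4.55 and 4.35, stood apart from the other 4 control libraries of that stage, which lay between 1.61 and 1.98. The part of this ratio in the differences between light and control was not tested. Median marker sums were highest at the 2-cell stage for 6 oocyte and maternal and 7 transient 2-cell genes, and in blastocysts for 7 trophectoderm genes. The lowest trophectoderm sum of a control blastocyst, 455, lay within the 171 to 1652 of control morulae. Other lists followed the labels less well. The 6 inner cell mass genes were highest in control blastocysts (median 1156) but lowest in light blastocysts (165, against 772 in light 4-cell libraries). The 5 primitive endoderm genes were highest at the 2-cell stage, with medians of 407 in control and 364 in light. Y-linked genes reached 10 CPM, that is reads scaled to a common total outside these 2 genes, in 0 control libraries from the 8-cell stage on and in 6 of 6 light blastocysts. They also did so in 8 of 8 light 4-cell libraries. The libraries of such uniform groups may come from few embryos. No source settles this, so the number of independent replicates in a group is unknown.

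In GRCm38 the genes lie on chromosome 10 (Arg1, 24915221 to 24927484; Amd1, 40287458 to 40302186; Oaz1, 80826656 to 80829290), chromosome 12 (Odc1, 17544794 to 17551505), chromosome 4 (Srm, 148591503 to 148594993), chromosome 15 (Azin1, 38487427 to 38519266) and chromosome X (Sms, 157443855 to 157492287; Sat1, 155213132 to 155216449). These coordinates come from GENCODE, since the table holds none and the processing notes name mm9. The RefSeq promoter table held 5 of the 8 genes. The stretches just upstream of Odc1, which was higher in all light 2-cell libraries, and of Sms and Sat1, which on the deposited scale were lower in all light blastocysts, are shown in gene orientation. For Odc1 the stretch ends at the GENCODE start, which lies before that of RefSeq. Capitals mark the letters CACGTG (E-box) and CCAAT on either strand.
Odc1, chr12:17544623-17544793, plus strand: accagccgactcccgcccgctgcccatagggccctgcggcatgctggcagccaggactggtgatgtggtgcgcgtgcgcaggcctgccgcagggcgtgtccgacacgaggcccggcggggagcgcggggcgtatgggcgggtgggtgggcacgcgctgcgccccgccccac
Sms, chrX:157492288-157492537, minus strand: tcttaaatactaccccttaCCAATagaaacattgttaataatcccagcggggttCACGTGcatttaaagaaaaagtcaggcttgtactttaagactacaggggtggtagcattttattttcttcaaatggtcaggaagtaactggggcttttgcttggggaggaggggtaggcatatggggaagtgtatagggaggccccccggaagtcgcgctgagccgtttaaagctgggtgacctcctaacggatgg
Sat1, chrX:155216450-155216699, minus strand: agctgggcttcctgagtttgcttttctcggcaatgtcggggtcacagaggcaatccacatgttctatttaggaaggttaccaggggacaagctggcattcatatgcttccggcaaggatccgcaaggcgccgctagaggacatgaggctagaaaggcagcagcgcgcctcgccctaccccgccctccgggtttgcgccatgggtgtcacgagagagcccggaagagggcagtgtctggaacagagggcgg

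The G and C content was 77.2% in the Odc1 stretch, 47.2% in that of Sms and 59.6% in that of Sat1. The Sms stretch held an E-box, which 6.02% of 32851 promoters held within 250 bases upstream, and a CCAAT, which 33.8% held. The letters TGACNNNGC (antioxidant response element, in 10.2% of promoters) and TATAAA (in 12.4%) were searched as well and were in none of the 3 stretches. Neither the 171 bases shown of Odc1 nor the 250 of Sat1 held any of these motifs.

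Per kilobase of exon, Oaz1 was the most abundant of the 8 transcripts in 2-cell embryos, with 471 ± 169 (SD, n = 7) in control and 574 ± 252 (SD, n = 6) in light, and Odc1 came next with 175 ± 87.2 and 468 ± 102. The spreads of Oaz1 and Odc1 overlapped in the light group. From the 4-cell stage on Odc1 stood highest in all groups but control morulae, where Sat1 (504 ± 269, n = 13) and Odc1 (439 ± 219) lay within each other's spread. The ranges of mean ± SD of these 2 genes also overlapped in control 4-cell embryos and blastocysts and in light 8-cell embryos and morulae. Arg1 was the lowest, with a range of mean ± SD that overlapped that of the next gene up to the 8-cell stage, in all groups but light 2-cell embryos, where its 73.4 ± 46.1 (n = 6) put it in place 5, not apart from Srm, Sms and Azin1. These levels depend on the annotated exon length, and near-copies of 3 members could share reads with them. Their highest group means, as deposited values, were 14.2 for Amd2, 42.4 for Oaz1-ps and 21.7 for Sms-ps.

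**Figure D1:**
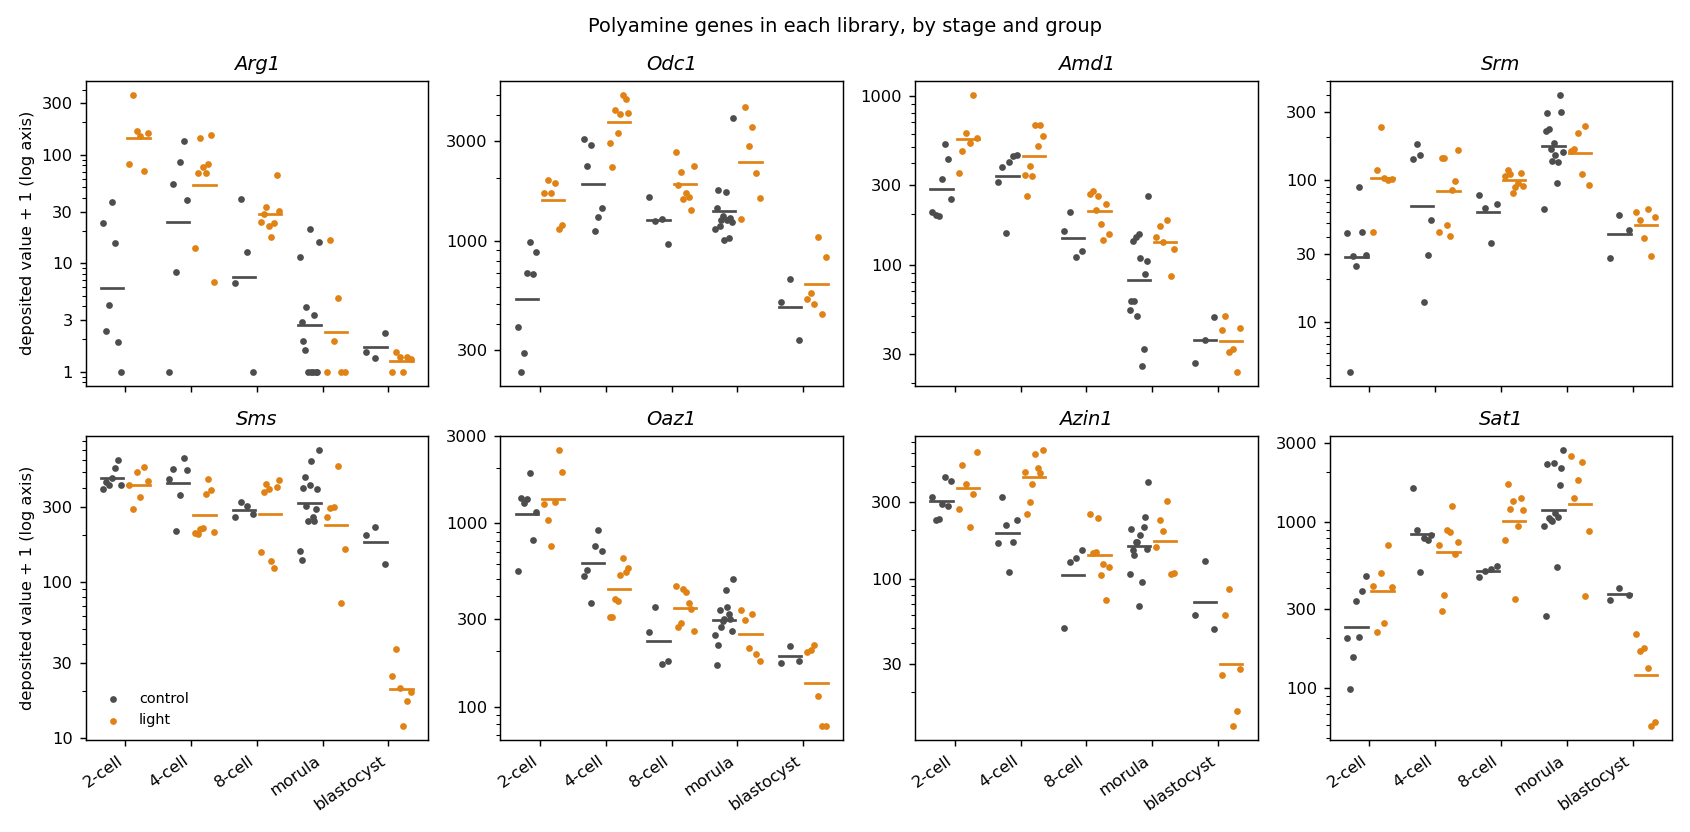
Deposited value plus 1 (log axis) of the 8 genes in each of the 67 libraries, by stage, with control in grey and light in orange; a horizontal line marks the mean of the log values of a group. Arg1 and Odc1 do not overlap between the groups at the 2-cell stage, and Sms and Sat1 do not overlap in blastocysts on this scale.

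Which of these genes differed after the light exposure was asked first at the 2-cell stage. Besides Arg1, the genes of ornithine decarboxylase and spermidine synthase rose, and 2 of the 7 genes tested passed the test, both higher, beside 10.5% of all genes called and 5.53% called higher. Calls required an adjusted p under 0.05 from limma, over all genes tested, and at least a 2-fold difference. The median log2 difference was 0.72 over the 7 genes and 0.00 over all genes. Arg1 ranged from 0 to 35.4 in control, with a median of 3.12, and from 70.1 to 356 in light, with a median of 154. Its groups did not overlap, as in 4.15% of all genes, and the light values rested on 41 to 508 reads. On the log2(value + 1) scale the difference was 4.60 ± 0.72 (SE), and it is the value for which the gene was chosen.

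Odc1, the rate-limiting enzyme of polyamine synthesis, lay between 236 and 992 in control 2-cell embryos (median 693) and between 1141 and 1960 in light (median 1692). Every light library was above every control library. Odc1 rose by 1.56 ± 0.29 (SE) on the log2 scale (limma, adjusted p = 0.00068), and it was also called with each of the 13 libraries left out in turn. Srm lay between 3.45 and 88.7 in control (median 28.5) and between 42.0 and 235 in light (median 102), with 5 of 6 light libraries above the highest control. Srm rose by 1.86 ± 0.54 (limma, adjusted p = 0.022), but without light library 12, the highest, the adjusted p was 0.078.

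Amd1, which supplies the aminopropyl donor, ranged from 194 to 521 in control (median 246) and from 351 to 1018 in light (median 546). All 6 light values were above the control median and 4 were above the highest control. The difference of 0.99 ± 0.29 on the log2 scale (limma, adjusted p = 0.027) was just under the 2-fold limit, so that Amd1 was not called. As CPM it was 1.05 and was called, and it was also called without control library 11, 12 or 17 or light library 9, 10 or 14. Sat1 differed by 0.72 ± 0.35 (adjusted p = 0.18), Oaz1 by 0.26 ± 0.27 (adjusted p = 0.59), Azin1 by 0.25 ± 0.29 (adjusted p = 0.63) and Sms by -0.15 ± 0.25 (adjusted p = 0.74), all by limma, and none of these was called.

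Arg1 is also known as a gene of macrophages and hepatocytes. Of 10 macrophage markers 5 were in the table, and their sum lay between 31.2 and 93.1 in control and between 11.3 and 63.7 in light 2-cell libraries. Of 7 hepatocyte markers 5 were listed, with a sum of 0 to 17.2 in control and of at most 5.78 in light 2-cell libraries. Alb, Apoa1 and Otc were at 0 in all light 2-cell libraries, while Cps1 and Tat had means above 1. In control 2 of the 5 had means above 1 as well. Of 8 cumulus cell markers 6 were listed, and their sum was higher in light. It was 0 to 5.52 (median 0.869) in control and 1.24 to 58.9 (median 11.8) in light 2-cell libraries. The mean was above 1 for 2 of the 6 in light and for 0 in control. Fshr and Lhcgr were at 0 in all light 2-cell libraries. The summed oocyte and maternal genes differed in the opposite direction to Odc1 and Srm, with 2248 to 5173 in control and 699 to 1924 in light. The part of the cumulus and the maternal genes in the 2-cell results was not tested.

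In 4-cell embryos 1 of the 8 genes was called, Azin1, beside 1.45% of all genes called and 1.12% called higher. The median difference was 0.37 over the 8 genes and 0.13 over all genes. Azin1, the antagonist of antizyme, lay between 109 and 320 in control (median 192) and between 251 and 631 in light (median 456), and 6 of 8 light libraries were above the highest control. It rose by 1.15 ± 0.29 on the log2 scale (limma, adjusted p = 0.043). This call sat near the threshold: it was lost without control library 1, 4 or 5 or light library 1, 6, 7, 9, 11, 13 or 14, with adjusted p-values over all libraries left out in turn between 0.020 and 0.091. With a term for Y-linked reads, added after the data were seen, it was 1.29 (adjusted p = 0.031), and edgeR gave 1.03 (adjusted p = 0.060). All 8 light 4-cell libraries held Y-linked reads, as did control libraries 3 to 6. The term thus in effect set light against these control libraries and left out control libraries 1 and 2.

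Odc1 ranged from 1111 to 3060 in control 4-cell embryos (median 1851) and from 2246 to 4986 in light (median 4073). The control libraries fell apart, with 3060, 2270 and 2876 in libraries 1, 2 and 3 against 1111, 1303 and 1431 in libraries 4, 5 and 6. The same libraries 1, 2 and 3 held 140, 178 and 151 of Srm, against 12.7, 28.7 and 51.7 in the others. Odc1 differed by 0.997 ± 0.25 (limma, adjusted p = 0.039) and missed the 2-fold limit narrowly. It was called as CPM (1.05, adjusted p = 0.025), with the term for Y-linked reads (1.25, adjusted p = 0.010), and without control library 1, 2 or 3 or light library 1 or 5. The term again in effect left out control libraries 1 and 2, which held 3060 and 2270.

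Arg1 at the 4-cell stage no longer separated the groups. It ranged from 0 to 133 in control (median 45.0) and from 5.65 to 151 in light (median 71.6), a difference of 1.13 ± 0.84 (limma, adjusted p = 0.50). The remaining differences were 0.40 ± 0.30 for Amd1, 0.34 ± 0.52 for Srm, -0.67 ± 0.30 for Sms, -0.47 ± 0.27 for Oaz1 and -0.37 ± 0.30 for Sat1, and none was called, with adjusted p-values of 0.23 to 0.78.

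At the 8-cell stage 1 of the 8 genes was called, Sat1, beside 9.21% of all genes called and 5.91% called higher (819 higher and 457 lower, or 649 and 631 after median ratio scaling). The median difference was 0.59 over the 8 genes and 0.16 over all genes. Sat1, which acetylates spermidine and spermine, was 466, 507, 520 and 542 in the 4 control libraries, and ranged from 342 to 1703 in light (median 1201). In light, 7 of 8 libraries lay above the highest control and library 9 lay below the lowest. Sat1 rose by 1.01 ± 0.28 (limma, adjusted p = 0.026), at the 2-fold limit itself. The call was lost by scaling to the median ratio (0.83) or as CPM (0.90), and without light library 6, 7, 8, 11 or 12 or control library 1, 2 or 3.

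Both X-linked members varied inside the light 8-cell group together with Y-linked reads. Light libraries 5, 9 and 10 held Y-linked reads of 181, 99.4 and 63.1 CPM, and the other 5 held 5.45 or less. Sms was 153, 134 and 120 in these 3 libraries and 376 to 449 in the other 5, with 257 to 321 in control, where Y-linked reads were 1.41 or less. Sat1 was 785, 342 and 944 in the same 3 libraries and 1194 to 1703 in the other 5. With a term for Y-linked reads, the light difference of Sat1 was 1.42 (limma, adjusted p = 0.00057) and that of Sms was 0.51 (adjusted p = 0.17), against -0.09 ± 0.34 (adjusted p = 0.90) without it. As no control library of this stage held Y-linked reads, the term in effect set control against the other 5 light libraries. These 5 also differed from control in Xist, with 301 to 1209 CPM against 0 to 5.64. The part of that difference was not tested.

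Srm did not overlap between the 8-cell groups, as in 5.61% of all genes. It was 77.7, 62.8, 34.8 and 67.2 in control and 80.5 to 117 in light (median 100.2), but as CPM control reached 118 and light began at 113, and the log2 difference of 0.76 ± 0.31 was not called (limma, adjusted p = 0.12). Arg1 was 5.55, 37.8, 11.6 and 0 in control and 16.5 to 63.8 in light (median 25.1). All 8 light libraries were above the control median, and 1 was above control library 2, the highest. The difference was 1.90 ± 0.71 (limma, adjusted p = 0.088), and it rested on single control libraries: without library 2 it was 2.69 (adjusted p = 0.018), and without library 4, which was at 0, it was 0.93 (adjusted p = 0.35). Odc1 differed by 0.57 ± 0.17 (adjusted p = 0.038), under the 2-fold limit, and Oaz1, Amd1 and Azin1 by 0.61 ± 0.24, 0.52 ± 0.27 and 0.39 ± 0.35, with no call.

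In morulae 0 of the 8 genes were called by limma, beside 1.18% of all genes (54 higher and 125 lower, or 138 and 139 after median ratio scaling), with a median of -0.04 over the 8 genes and 0.10 over all. Only Odc1 had an unadjusted p under 0.05 (0.0039), and edgeR and DESeq2 called 0 as well, with Odc1 at 0.99 (adjusted p = 0.016) and 0.98 (adjusted p = 0.0017), just under 2-fold. Odc1 ranged from 1014 to 3862 in control (median 1254) and from 1275 to 4352 in light (median 2470), and all 6 light libraries lay above the control median. The difference was 0.78 ± 0.25 (limma, adjusted p = 0.11). After quantile normalization it was 1.22 (adjusted p = 0.0047), a call. Amd1 differed by 0.76 ± 0.41 (adjusted p = 0.38), and the other 6 genes by -0.48 to 0.12, with adjusted p-values of 0.55 to 0.93. Arg1 was at 0 in 5 of 13 control and 3 of 6 light morulae, with at most 19.7 and 15.4. In the light group library 9, which alone held Y-linked reads (143 CPM), had the lowest Sms (71.5, against 161 to 546) and the lowest Sat1 (359, against 887 to 2514).

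In blastocysts the 2 X-linked members fell, and 2 of the 7 genes tested were called, both lower, beside 5.34% of all genes called and 4.98% called lower. Over all genes the deposited scale gave 45 higher and 635 lower calls, and median ratio scaling 132 and 152. The median difference was -0.48 over the 7 genes, beside -0.64 over all genes. Sms, which makes spermine from spermidine, was 198, 223 and 129 in control and 10.8 to 36.3 in light (median 19.3). The highest light library was below the lowest control by more than 3 times. Sms fell by 3.12 ± 0.47 on the log2 scale (limma, adjusted p = 0.00094), from a mean of 183 ± 48.6 (SD, n = 3) to 20.9 ± 8.65 (SD, n = 6). This call held with each of the 9 libraries left out in turn, with differences of -3.36 to -2.96. Relative to the median of all genes on the deposited scale it was -2.48. As CPM, where that median was -0.04, it was -2.40 (adjusted p = 0.0065).

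Sat1 was 341, 400 and 362 in control blastocysts and 57.8 to 211 in light (median 149). The groups of Sms and of Sat1 did not overlap, as in 12.5% of all genes. As CPM the groups of Sat1 overlapped, since light library 13 (508) lay above control library 3 (494). Sat1 fell by 1.61 ± 0.42 (limma, adjusted p = 0.028), and its value relative to the median of all genes was -0.97. The call was lost as CPM (-0.85, adjusted p = 0.21), with edgeR (-0.90, adjusted p = 0.18), and without light library 24, 26 or 29 or control library 2.

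All 6 light blastocysts held Y-linked reads, 42.0 to 167 CPM, and the 3 control blastocysts held 0.876 or less, so a difference between libraries with and without Y-linked reads and a difference between light and control cannot be told apart for Sms and Sat1 at this stage. The 6 inner cell mass markers summed to 283, 1156 and 1604 in control and to 134 to 205 in light, while the 7 trophectoderm markers summed to 455 to 6121 and 2631 to 6796. The 5 primitive endoderm markers summed to 42.4 to 480 in control and 70.3 to 129 in light. Their part in the fall of Sms and Sat1 was not tested. Sms-ps, a processed copy of Sms that also lies on chromosome X, was between 3.21 and 7.89 in control and between 0 and 0.713 in light.

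The other 5 blastocyst values did not pass the test. Azin1 was 58.9, 128 and 48.2 in control and 11.3 to 85.6 in light, a difference of -1.28 ± 0.59 (limma, adjusted p = 0.19). Odc1 differed by 0.37 ± 0.34 (adjusted p = 0.53) and Srm by 0.20 ± 0.46 (adjusted p = 0.82), and as CPM these were 1.14 (adjusted p = 0.13) and 0.97 (adjusted p = 0.24). Amd1 (-0.02 ± 0.47) and Oaz1 (-0.48 ± 0.41) had no stable sign, since both were above 0 as CPM. Arg1 was too low to test, with 0 to 2 reads in each blastocyst.

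**Figure D2:**
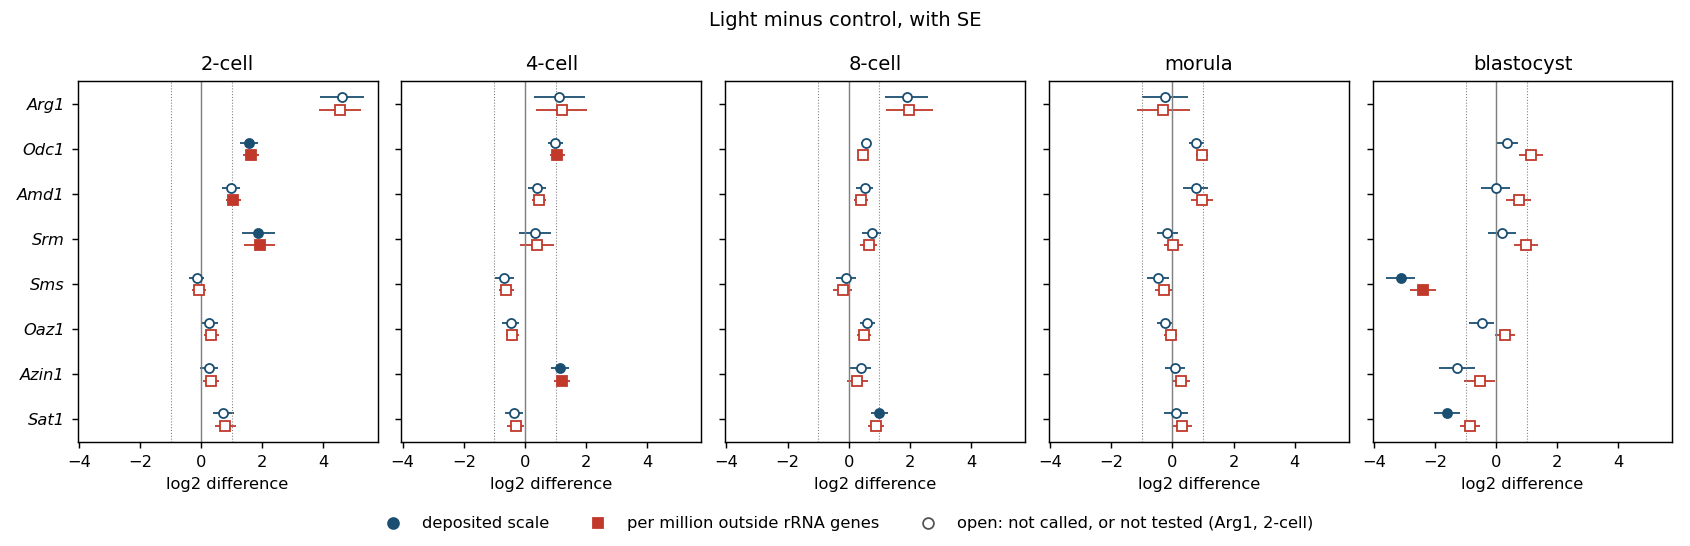
Log2 difference of light minus control with its SE for each gene, a panel a stage, on the deposited scale (blue circles) and as CPM (red squares); filled symbols passed both limits of the limma call, dotted lines mark a 2-fold change, and Arg1 was not tested at the 2-cell stage and is not drawn in blastocysts. Odc1 and Srm lie to the right in 2-cell embryos, and Sms lies at -3.12 and -2.40 in blastocysts.

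**Figure D3:**
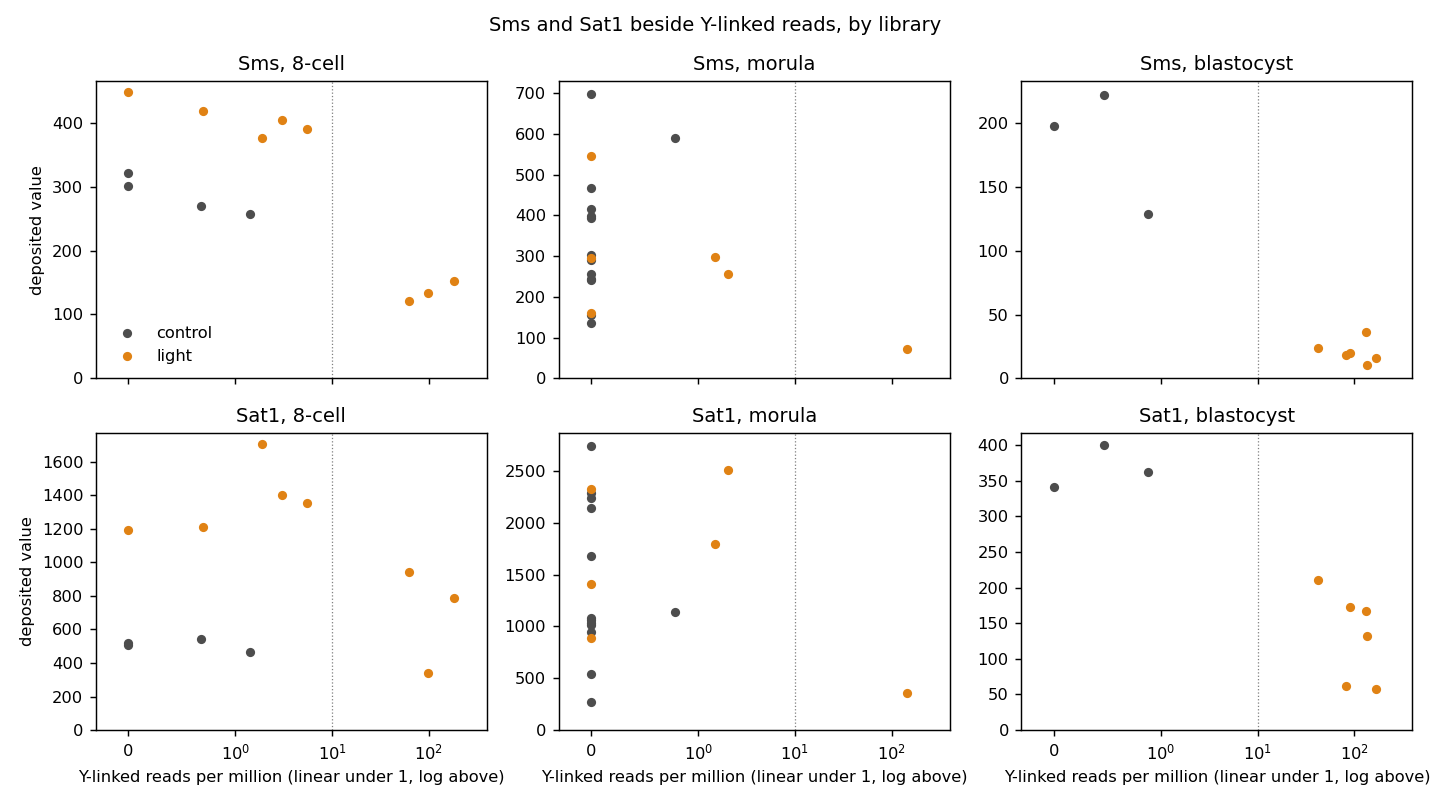
Deposited value of Sms (top) and Sat1 (bottom) in each library against its Y-linked CPM (axis linear under 1 and log above), at the 8-cell, morula and blastocyst stages; control is grey, light is orange, and the dotted line marks 10 CPM. The light 8-cell libraries split into 3 with Sms of 120 to 153 and 5 with 376 to 449, and all light blastocysts lie right of the line.

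How the members changed between adjacent stages was tested within each group. These steps use the same libraries as the comparisons of light with control and share libraries with each other. In control, 8 of 31 values tested were called, 4 higher and 4 lower, and in light 11 of 30, 1 higher and 10 lower. The 10 lower calls include that of Arg1 from the 8-cell stage to the morula, which is a description only, as given below. Over all genes the share called at a step was 6.31% to 46.1% in control and 10.6% to 36.5% in light. In light, calls over all genes were more often lower than higher at every step on the deposited scale. After median ratio scaling this was not so from the morula to the blastocyst. The step from the 2-cell to the 4-cell stage had the largest share of all genes called, 46.1% in control and 36.5% in light. There Odc1 rose in both groups, by 1.82 ± 0.35 in control (limma, adjusted p = 0.00023) and by 1.25 ± 0.19 in light (adjusted p = 5.0e-06). Sat1 rose in control by 1.87 ± 0.36 (adjusted p = 0.00025). Its difference in light was 0.79 ± 0.30 (adjusted p = 0.035), under the 2-fold limit, and 1.13 as CPM, a call. Y-linked reads were held by 2 of 6 light 2-cell and 8 of 8 light 4-cell libraries, and their part in this X-linked gene was not tested. Oaz1 fell by 1.62 ± 0.25 in light (adjusted p = 7.5e-06), and its control difference was -0.89 ± 0.29 (adjusted p = 0.017), under the limit. The median of all genes was -0.72 in control and -0.56 in light, where 1283 were called higher and 5010 lower (2004 and 4078 after median ratio scaling). Arg1, not tested here, differed by 2.03 in control and by -1.44 in light.

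From the 4-cell to the 8-cell stage 6.31% of all genes were called in control and 10.6% in light. These shares held for the deposited scale: 847 calls in control (153 higher, 694 lower) became 272 (200 and 72) after median ratio scaling, and 1602 in light (94 and 1508) became 384 (161 and 223). Oaz1 fell by 1.42 ± 0.36 in control (limma, adjusted p = 0.019), but as CPM its value was -0.70 (adjusted p = 0.26), and it was also lost without control 8-cell library 3 or 4. In light Azin1 fell by 1.61 ± 0.24 (adjusted p = 8.6e-05) and Amd1 by 1.10 ± 0.22 (adjusted p = 0.0011). As CPM the Amd1 value was -0.54 (adjusted p = 0.088), no call. Sat1 in light went the other way, with 0.62 ± 0.27 (adjusted p = 0.13) on the deposited scale and 1.18 (adjusted p = 0.0050) as CPM, where it was called. Y-linked reads were held by 8 of 8 light 4-cell and 3 of 8 light 8-cell libraries, and their part in this X-linked gene was not tested.

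From the 8-cell stage to the morula 14.3% of all genes were called in control and 11.8% in light, with 1024 higher and 1121 lower in control (892 and 1545 after median ratio scaling) and 665 and 1040 in light (837 and 869). Arg1 fell by 3.61 ± 0.64 in light (limma, adjusted p = 0.00034), from 16.5 to 63.8 in 8-cell libraries to 0 to 15.4 in morulae, with no overlap, as in 3.57% of all genes. Light morulae were at 0 in 3 of 6 libraries, with a median of 0.456. Arg1 thus passed the filter on low values only through the 8-cell libraries, where it was high. The p-value is therefore a description only, and no light library was left out in turn for this step. In control the difference of Arg1 was -1.47 ± 0.97 (adjusted p = 0.34), starting from a lower level. Srm rose in control by 1.56 ± 0.41 (adjusted p = 0.0097), a call lost without control 8-cell library 3, and Sat1 by 1.23 ± 0.39 (adjusted p = 0.036), a call lost when any 1 of the 4 control 8-cell libraries was left out.

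The step from the morula to the blastocyst had the most member calls, all of them lower, beside 11.9% of all genes called in control (5.11% lower) and 20.7% in light (15.7% lower). The split of all genes depended on the scaling: in light 681 were called higher and 2131 lower on the deposited scale, against 1349 and 826 after median ratio scaling, and in control 1010 and 765 against 1544 and 721. In control 3 of 8 genes fell, Srm by 2.07 ± 0.46 (limma, adjusted p = 0.0035), Odc1 by 1.53 ± 0.31 (adjusted p = 0.0015) and Sat1 by 1.69 ± 0.46 (adjusted p = 0.016). The Sat1 call was lost when any 1 of the 3 control blastocysts was left out. In light 6 of 7 fell. Y-linked reads were held by 1 of 6 light morulae and 6 of 6 light blastocysts. Stage and Y-linked reads thus changed together, and their parts in the falls of the X-linked Sms and Sat1 were not tested. Sms fell by 3.48 ± 0.42 (adjusted p = 2.1e-07) and Sat1 by 3.43 ± 0.39 (adjusted p = 6.9e-08), followed by Azin1 (2.53 lower, SE 0.43), Amd1 (1.96 lower, SE 0.36), Odc1 (1.94 lower, SE 0.30) and Srm (1.70 lower, SE 0.36). After median ratio scaling Sms, Sat1, Azin1, Amd1 and Odc1 were still called lower in light and Srm, at -0.97, was not. Oaz1 had -0.87 ± 0.34 (adjusted p = 0.059). The median of all genes was 0.28 in control and -0.45 in light. Over the 67 libraries Arg1 was at 0 in 13, where 3 reads, the number that a count of 0 allows, would be 2.02 to 6.43 CPM.

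Whether the light difference itself changed from stage to stage was tested by an interaction term. Of the members, 1 passed in 1 of the 4 stage pairs, Sms between morula and blastocyst, where 1.57% of all genes were called. Its light difference was 2.64 ± 0.62 (SE) lower in blastocysts than in morulae (limma, adjusted p = 0.018), and this call was lost without control blastocyst 1 or 2. Sat1 differed by -1.74 ± 0.67 for the same pair (adjusted p = 0.18) and by 1.37 ± 0.45 between the 4-cell and the 8-cell stage (adjusted p = 0.072), where 3.8% of all genes were called and edgeR called Sat1 (1.38, adjusted p = 0.038). No member was called for the pair of 2-cell and 4-cell (3.07% of all genes), with unadjusted p-values under 0.05 for Sat1 and Azin1, or for that of 8-cell and morula (2.62%), with Oaz1 under 0.05. edgeR called none of them in these 2 stage pairs. The fall of Arg1 from its 2-cell difference was not tested.

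Ratios between members, taken as log2 of (value + 1), depend little on the scaling of a library and are given with no test. The log2 ratio of Odc1 to its antagonist Oaz1 was -1.10 ± 0.90 (SD, n = 7) in control and 0.20 ± 0.92 (n = 6) in light 2-cell embryos. At the 4-cell stage it was 1.60 ± 1.06 (n = 6) and 3.07 ± 0.21 (n = 8), and in morulae 2.23 ± 0.48 (n = 13) and 3.27 ± 0.71 (n = 6). In 8-cell embryos both groups lay near each other, at 2.46 ± 0.46 and 2.42 ± 0.48. The ratio of Azin1 to Oaz1 did not overlap at the 4-cell stage, with -2.78 to -0.76 in control and -0.41 to 0.59 in light. The ratio of Odc1 to Sat1, of the synthetic to the catabolic enzyme, did not overlap in blastocysts, with -0.11 to 0.71 in control and 1.32 to 3.75 in light. In blastocysts 12.5% of all single genes did not overlap, and the share over other pairs of genes was not computed at any stage. Sat1 is X-linked. Y-linked reads were held by 6 of 6 light and 0 of 3 control blastocysts, so light and Y-linked reads cannot be told apart in this ratio. All other ratios overlapped between the groups.

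**Figure D4:**
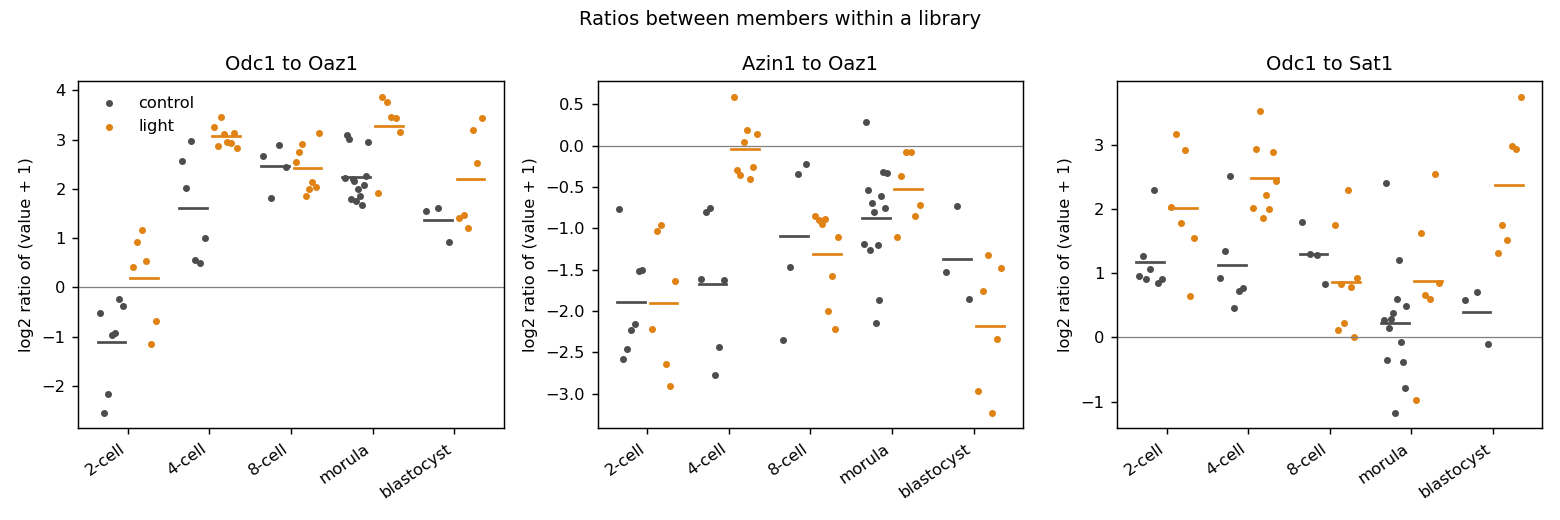
Log2 ratio of (value + 1) of Odc1 to Oaz1, Azin1 to Oaz1 and Odc1 to Sat1 in each library, by stage, with control in grey, light in orange and lines at group means. At the 4-cell stage the light values of Azin1 to Oaz1 all lie above the highest control value of -0.76, and in blastocysts those of Odc1 to Sat1 all lie above 0.71.

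The pattern of Arg1 over the 67 libraries was compared with that of 11298 genes present in at least 20 libraries. The 5 most like it were Ctsl (r = 0.78), Amhr2 (r = 0.76), Gabpa (r = 0.75), Amd1 (r = 0.75) and Cfap61 (r = 0.74), and the same 5 came first as CPM. The libraries share stages, groups and scaling, so these values describe likeness only. They also include the 2-cell libraries by which Arg1 was chosen, which favours genes higher in light 2-cell embryos. The 2-cell means below are thus a description. Ctsl, which encodes cathepsin L, averaged 375 ± 218 (SD, n = 7) in control and 1218 ± 235 (n = 6) in light 2-cell embryos, and peaked at the 4-cell stage with 2261 ± 1046 (n = 6) and 2348 ± 780 (n = 8). Gabpa, an ETS transcription factor, averaged 177 ± 114 and 593 ± 277 at the 2-cell stage. Of the other members, Oaz1 had r = 0.54, Azin1 0.49, Odc1 0.42 and Sms 0.41, and Sat1 (0.08) and Srm (-0.05) were near 0.

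Around the members, 50 genes of 5 lists were followed: the ornithine and urea cycle, regulators and catabolism of polyamines, the methionine cycle and its salvage, hypusine and transport. In 2-cell embryos 2 of 42 tested were called, beside 10.5% of all genes, Mat2a higher and Nos1 lower. Mat2a, which makes S-adenosylmethionine, lay between 57.2 and 691 in control and between 260 and 1597 in light, and rose by 1.90 ± 0.45 (limma, adjusted p = 0.0057), a call held with each library left out in turn. Nos1, a nitric oxide synthase that uses arginine, fell by 1.15 ± 0.38 (adjusted p = 0.044) from 165 ± 86.2 (SD, n = 7) to 71.5 ± 25.2 (n = 6), but was lost in 11 of 13 fits with a library left out. The list medians were 0.84 (methionine cycle), 0.70 (hypusine), 0.24 (regulators and catabolism), 0.16 (ornithine and urea cycle) and -0.06 (transport), beside 0.00 for all genes. edgeR called 6 and DESeq2 8 of the 42. Of the 4 hypusine genes limma called 0 in any comparison of light with control, while Dohh and Eif5a2 had an unadjusted p under 0.05 in 2-cell embryos and edgeR called these 2 there.

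At the 4-cell stage 0 of 41 genes of these lists were called by limma, beside 1.45% of all genes, with 3 at an unadjusted p under 0.05 (Eif5a2, Nos1 and Oaz2) and 0 called by edgeR or DESeq2. At the 8-cell stage Ass1, the argininosuccinate synthase, was the 1 gene called among 39, beside 9.21% of all genes, with 0 to 0.417 in control and 1.55 to 61.8 in light (adjusted p = 0.038). Ass1 passed the filter on low values only through the light libraries, where it was higher, so this p-value is a description only. This call was lost in 6 of 12 fits with a library left out, among them those without each of the 4 control libraries. Among 41 genes in morulae, 1 was called, the amino acid transporter gene Slc7a6, beside 1.18% of all genes, and it fell by 1.39 ± 0.35 (adjusted p = 0.038) from 258 ± 132 (SD, n = 13) to 93.2 ± 34.6 (n = 6), a call lost in 8 of 19 fits with a library left out. In blastocysts 4 of 37 were called by limma, beside 5.34% of all genes, 1 by edgeR and 3 by DESeq2. Ass1 rose by 1.47 ± 0.41 (adjusted p = 0.036) from 221 ± 132 (n = 3) to 522 ± 119 (n = 6), and as CPM by 2.25 (adjusted p = 0.0013), but on the deposited scale the call was lost in 5 of 9 fits with a library left out. The polyamine transporter gene Atp13a3, Ahcy and Slc3a2 fell by 1.69 ± 0.41, 1.82 ± 0.48 and 1.81 ± 0.49 (adjusted p of 0.021, 0.029 and 0.032), and all 3 calls were lost as CPM, where they were -0.93, -1.07 and -1.07 with adjusted p-values of 0.13, 0.29 and 0.18.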

How the data were processed

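SMART-seq2 libraries were grouped by stage and by light or control from the labels. Per the labels, the authors aligned with HISAT2 and counted with HTSeq 0.9.1 (mm9), and the deposited signal is reads divided by a library size factor. The methods describe RPKM, but no length division was found: at least 99.97% of values per library were whole reads within 0.01. Tests used limma 3.58.1 (trend) in R 4.3.3 on log2(value + 1), for genes above 1 in 3 or more libraries of a comparison, with Benjamini-Hochberg adjustment over all genes and the study's thresholds (0.05, 2-fold). The study's methods name no test. Alternatives were pseudocount 0.1, other filters and scalings, edgeR 4.0.16 and DESeq2 1.42.0 on recovered reads, thinning, 1 fit over all libraries, the replicate number as a block and libraries left out in turn. A term for Y-linked reads was added after seeing the data. Scripts were tested on simulated data. Named were all members, the genes of the wider lists called in light against control (up to 6 a stage by smallest p) and the 5 genes most like Arg1, predicted genes left out. Members and lists were chosen with earlier results of these data known. Coordinates and exon lengths are from GENCODE (GRCm38), promoters from RefSeq (GRCm38.p6). Tables were made with Python 3.11.15.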

Additional observations from a re-analysis of the deposited data

Results flagged for a closer look

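In groups of 4 to 10 libraries, the highest or lowest value of a member was compared with the rest by Dixon's criterion at 95%, in 62 groups, leaving out Arg1 at the 2-cell stage. Chance gives about 1 in 20, and 3 were found. Arg1 stood apart in light 8-cell library 11 (63.8, next 31.8) and in light morula library 3 (15.4, next 3.73). Sat1 stood apart in control 4-cell library 1 (1610, next 894), a library without Y-linked reads.

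The light difference of Sms differed between stages, being 2.64 lower on the log2 scale (-2.64) in blastocysts than in morulae (limma, adjusted p = 0.018). All 6 light blastocysts and 1 of 6 light morulae held Y-linked reads, and no control library of these stages did. Their part in this difference was not tested, and in blastocysts it cannot be told apart from that of light.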

How the results depend on the processing

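The calls were near their limits at most stages. In 2-cell embryos 2 members were called, 1 with no filter on low values, and 1 to 3 with a library left out. In 4-cell embryos 1 was called, 0 with no filter, edgeR or 1 fit over all libraries, and 2 with median ratio scaling, quantile normalization, CPM, thinning or the term for Y-linked reads (0 to 2 with a library left out). In 8-cell embryos 1 was called, 0 with no filter, median ratio scaling, quantile normalization, CPM, DESeq2, thinning or 1 fit (0 to 1 with a library left out). In morulae 0 were called, and 1 after quantile normalization. In blastocysts 2 were called, and Sms but not Sat1, that is 1, with pseudocount 0.1, no filter, median ratio scaling, quantile normalization, CPM, edgeR, DESeq2, thinning or 1 fit (1 to 2 with a library left out). Of the control steps 8 were called, 5 with no filter, and 5 to 7 with an 8-cell or blastocyst library left out. Of the stage differences of the light effect 1 was called, 2 with quantile normalization, edgeR or DESeq2, and 0 to 1 with a library left out. With the replicate block 0 members and 0 of all genes were called in 2-cell embryos, 4-cell embryos and morulae. Few numbers occurred in both groups of a stage (9, 10 and 12 in 2-cell embryos). This fit thus had little left to measure spread by and could hardly call a gene. Libraries of the same number correlated by -0.087 to 0.069 once the mean of each group was taken off. No pairing by number was thus seen in these values, and no source names a shared litter or culture drop. No called value changed sign under any alternative run, and 107 changes of sign were between values that were not called. The cause of these changes was not tested. Depth limits Arg1, whose values below about 6 CPM rest on few reads.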
